A study of Mus musculus with 8 samples.

Results

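The R-spondin module was followed through 9 genes chosen by name: the secreted R-spondins Rspo1, Rspo2, Rspo3 and Rspo4, their receptors Lgr4, Lgr5 and Lgr6, and the membrane E3 ubiquitin ligases Znrf3 and Rnf43. All 9 were among the 53801 genes of the count table, and 8 passed the filter on low counts. They were measured by RNA sequencing in 4 YFP-positive and 4 YFP-negative libraries of CD45-CD31- stromal cells from small intestine. All mice were LTβR-YFP mice given indomethacin, a non-steroidal anti-inflammatory drug that injures the gut, and the cells were sorted from their intestinal ulcers by flow cytometry. Both groups therefore share the drug and the reporter strain, and untreated mice were not analysed here. The labels do not state how the reporter is driven relative to Ltbr, the age of the mice or the number of mice behind a library. The p-values therefore measure the spread between these libraries. Where the replicate number is a term of the fit, they measure only the spread that remains after it. Ltbr itself averaged 79.7 CPM in YFP-positive and 71.3 CPM in YFP-negative libraries, with an edgeR adjusted p of 0.613 in the fit described below.

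Wnt ligands act through Frizzled receptors and the co-receptors LRP5 and LRP6. ZNRF3 and RNF43 mark these receptors for removal from the cell surface, and R-spondins, bound to LGR4, LGR5 or LGR6, take the ligases out of action and so raise the response to Wnt. In the intestine, R-spondins made by stromal cells around the crypt sustain the LGR5-positive stem cells of the epithelium, and RSPO3 from CD81-positive trophocytes and lymphatic endothelium is a known source.

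The libraries held 12481608 to 29385718 counts, and 1 CPM (a count scaled to library size) was about 12.5 counts in the smallest. The 2 libraries with replicate number 2 stood apart from the other 6 on principal component 1 (35.5% of the variance), with scores of 78.7 in YFP-positive and 92.5 in YFP-negative cells, against -46.2 to -12.4 for the others. Libraries with the same number deviated together from their group means (r = 0.233, 0.487, 0.376 and 0.376 for numbers 1 to 4, against at most 0.0456 between different numbers), so the numbers were taken to pair the libraries. The labelled cell type held for the fibroblast genes, with Col1a1 at 6416 CPM in YFP-positive and 8565 CPM in YFP-negative libraries and Pdgfra at 1670 CPM in YFP-positive and 1668 CPM in YFP-negative libraries. Transcripts of the sorted-out lineages were present. Ptprc, which encodes CD45, averaged 5.52 ± 4.68 CPM in YFP-positive and 2.60 ± 1.57 CPM in YFP-negative libraries, and Pecam1, which encodes CD31, 28.6 ± 14.6 CPM in YFP-positive and 25.9 ± 16.3 CPM in YFP-negative libraries (SD, n = 4 each).

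The test for each gene was edgeR's quasi-likelihood test across 15945 genes, two-sided, with Benjamini-Hochberg adjustment and a threshold of 0.05. Without the replicate number the fit called 0 genes lower (0%) and 0 higher (0%), with 169 lower and 156 higher at an unadjusted p of 0.05 or below, while DESeq2 without the number called 2. With the replicate number as a block it called 253 genes lower (1.59%) and 111 higher (0.696%) in YFP-positive cells. With library sizes alone as the scaling, which moved the median of all genes to 0.0915 on the log2 scale, the blocked fit called 153 lower and 212 higher. "Rose" and "fell" below refer to the blocked fit. The authors' own deposited comparison was matched by a DESeq2 fit with the number as a term, in which all 29762 fold changes lay within 0.001 of theirs and the same 496 genes were called.

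The 3 R-spondins with a measurable transcript all fell in YFP-positive cells, while no receptor and no E3 ligase passed the test in either direction. Rspo3, the most abundant, fell to 0.642 of its YFP-negative level, Rspo1 to 0.533 and Rspo2 to 0.419. Each was lower in the YFP-positive library of all 4 pairs, which was true of 10.2% of all genes tested. In the fit without the block none of the 9 genes was called, and the log2 fold changes of Rspo1 (-0.93), Rspo2 (-1.01) and Rspo3 (-0.65) kept their direction.

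The promoter sequences of the genes are shown because LTβR signals through NF-κB, whose binding sequence can be looked for in them. RefSeq windows on GRCm38.p6, running from 250 bases before to 50 bases after the annotated start, were held for Rspo1, Rspo4, Lgr4, Lgr6 and Rnf43 (6 windows, Rnf43 with 2). Rspo1, which fell, and Lgr4, which did not pass the test and was chosen for contrast after its values were seen, are printed 5′ to 3′ on the plus strand, chr4:124986180-124986479 and chr2:109917397-109917696, with capitals marking matches to the NF-κB core GGGNNNNNCC or its reverse complement GGNNNNNCCC.
Rspo1: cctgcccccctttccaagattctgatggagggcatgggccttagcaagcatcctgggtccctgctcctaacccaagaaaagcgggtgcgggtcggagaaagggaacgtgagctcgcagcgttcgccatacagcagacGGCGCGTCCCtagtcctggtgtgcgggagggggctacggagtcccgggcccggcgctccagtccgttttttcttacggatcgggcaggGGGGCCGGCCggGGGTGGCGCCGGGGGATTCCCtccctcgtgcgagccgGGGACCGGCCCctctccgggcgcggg
Lgr4: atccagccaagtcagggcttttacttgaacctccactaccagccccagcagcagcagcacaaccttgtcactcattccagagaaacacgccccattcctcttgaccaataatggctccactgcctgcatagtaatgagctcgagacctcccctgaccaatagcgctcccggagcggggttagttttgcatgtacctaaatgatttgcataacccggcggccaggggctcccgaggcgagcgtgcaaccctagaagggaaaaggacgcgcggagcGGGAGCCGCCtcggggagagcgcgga
The Rspo1 window held 7 matches, several of them overlapping, and 99.3% of 32851 windows held fewer. The Lgr4 window held 1, where 49.2% of windows held fewer. The core is short and rich in G and C, and 50.8% of all windows held at least 1 match. The Rspo1 window was itself 69% G and C with 29 CpG dinucleotides, and the Lgr4 window 58.3% with 18, against medians of 52.7% and 7 over all windows. Rspo4, at 71% and with 4 matches, had 1 count over all 8 libraries. Lgr6, which did not pass the test, also held 4 matches at 67.7% G and C, where 93.4% of windows held fewer. The 2 Rnf43 windows held 0 and 1. None of the 6 windows held the TCF/LEF core CTTTGAT or its reverse ATCAAAG, which 3.73% of windows hold, or the AP-1 sequence TGANTCA, which 7.81% hold. A match describes letters in a window and not a bound site.

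Rspo3 lies on chromosome 10 (GRCm38 chr10:29452416-29535867, minus strand) and encodes an R-spondin known to maintain intestinal crypts. It stood at 76.2, 54.1, 67.4 and 61.5 CPM in YFP-positive libraries 1 to 4 and at 117, 80.5, 88.0 and 121 CPM in YFP-negative libraries 1 to 4. The groups did not overlap, a separation that 0.859% of all genes tested showed in this direction and 0.69% in the other. The means were 64.8 ± 9.33 CPM in YFP-positive and 102 ± 20.4 CPM in YFP-negative cells (SD, n = 4 each), and the blocked log2 fold change was -0.64 ± 0.09 (SE; adjusted p = 0.00132, edgeR), a ratio of 0.642 with a 95% interval of 0.560 to 0.736. Without the block the log2 fold change was -0.65 with an edgeR adjusted p of 0.99985, and no gene had a lower one. The authors' deposited table gives Rspo3 a log2 fold change of -0.644 with an adjusted p of 1.9e-06. The exons of Rspo3 share 404 bases with the antisense gene Gm48159, whose 74 counts over all libraries compare with 14286 for Rspo3. Whether counting used strand is not stated in the labels.

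Rspo1 (chr4:124986430-125009099, plus strand) encodes the ligand whose recombinant protein is used to grow intestinal organoids. It was nearly constant in YFP-positive libraries 1 to 4, at 7.03, 7.04, 7.0 and 6.77 CPM, and stood at 12.4, 9.63, 13.7 and 17.4 CPM in YFP-negative libraries 1 to 4. The highest YFP-positive library was below the lowest YFP-negative one. The YFP-positive SD was 1.84% of the mean although the smallest count behind it, 102, carries a counting error of 9.90%, so this SD is smaller than counting alone would give. The means were 6.96 ± 0.128 CPM in YFP-positive and 13.3 ± 3.24 CPM in YFP-negative cells (SD, n = 4 each). The blocked log2 fold change was -0.91 ± 0.21 (SE; adjusted p = 0.0345, edgeR), a ratio of 0.533 with a 95% interval of 0.390 to 0.728. The call for Rspo1 was lost when pair 1, 3 or 4 was left out (edgeR adjusted p = 0.0998, 0.188 and 0.281), with library sizes alone as the scaling (0.0513) and with the summed epithelial markers as a covariate (0.0820). The authors' deposited table gives -0.914 with an adjusted p of 0.0128.

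Rspo2 (chr15:43020794-43170826, minus strand), a ligand also known for its part in limb and lung development, differed more between replicate numbers than between groups. It stood at 7.27, 0.345, 4.64 and 17.0 CPM in YFP-positive libraries 1 to 4, on 211, 5, 116 and 429 counts, and at 22.2, 3.15, 7.82 and 26.0 CPM in YFP-negative libraries 1 to 4, on 398, 37, 232 and 514 counts. The groups overlapped, but within every pair the YFP-positive library was lower, with ratios of 0.110 to 0.653. The blocked log2 fold change was -1.25 ± 0.30 (SE; adjusted p = 0.0475, edgeR), a ratio of 0.419 with a 95% interval of 0.269 to 0.655. Without pair 2, which has the lowest counts, the edgeR adjusted p was 0.0147. The call was lost without pair 1, 3 or 4 (0.251, 0.111 and 0.0549), with library sizes alone (0.0735) and with the epithelial covariate (0.0757). The authors' deposited table gives -1.317 with an adjusted p of 0.00316.

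Rspo4 (chr2:151842927-151874668, plus strand), known for its role in nail formation in humans, was not detectable at this depth. It had 1 count in YFP-positive library 1 and 0 in the other 7 libraries. By counting error only, 1 count allows up to 5.57 counts (exact Poisson, two-sided 95%), or 0.0612 CPM over the YFP-positive libraries. A count of 0 allows up to 3 counts (one-sided 95%), or 0.0371 CPM over the YFP-negative libraries. The limits of the groups are therefore not at the same level. Rspo4 failed the filter, and with a single count no test between the groups can be made.

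**Figure D1:**
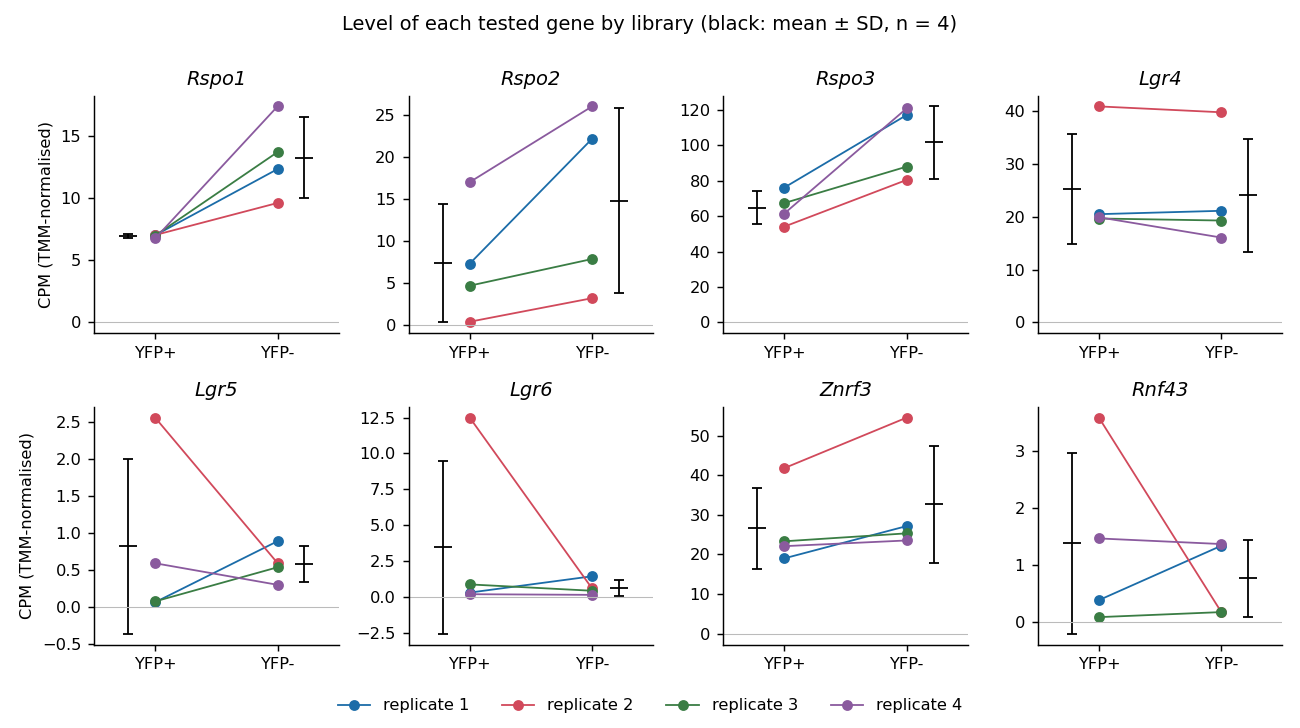
TMM-normalised CPM (vertical axis, linear, own scale in each panel) of the 8 genes that passed the filter, in YFP-positive (left) and YFP-negative (right) libraries; lines join libraries with the same replicate number and black marks give mean ± SD, n = 4. All 4 lines of Rspo1, Rspo2, Rspo3 and Znrf3 are lower at the YFP-positive end, and replicate 2 (red) stands apart in Lgr4, Lgr6 and Znrf3.

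Levels of different genes are comparable only per length of transcript, and the following values are CPM per kilobase of annotated exon. The summed R-spondin level was 29.7, 21.2, 26.3 and 26.7 in YFP-positive libraries 1 to 4 and 48.6, 31.6, 37.1 and 53.2 in YFP-negative libraries 1 to 4. The highest YFP-positive sum was below the lowest YFP-negative one. By group means the make-up of the sum was close in both groups. Rspo3 held 80.7 ± 4.15% of it in YFP-positive and 77.7 ± 3.64% in YFP-negative libraries, and Rspo1 14.03 ± 2.16% in YFP-positive and 16.2 ± 2.49% in YFP-negative libraries (SD, n = 4 each). Rspo2 had the widest share, 0.318% to 12.4% in YFP-positive and 1.95% to 9.56% in YFP-negative libraries. The mean differences in share were smaller than the SD between YFP-negative libraries. For Rspo2 and Rspo3 they were also smaller than the SD between YFP-positive libraries, and for Rspo1 about as large as it. Within pairs the share of Rspo3 was higher in the YFP-positive library of all 4, by ratios of 1.002 to 1.08. In pairs 1 to 4 the ratios of the share were 0.930, 1.09, 0.718 and 0.774 for Rspo1. For Rspo2 they were 0.537, 0.163, 0.835 and 1.30, with 5 counts behind the YFP-positive value of pair 2. The ratios of shares were not tested.

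**Figure D2:**
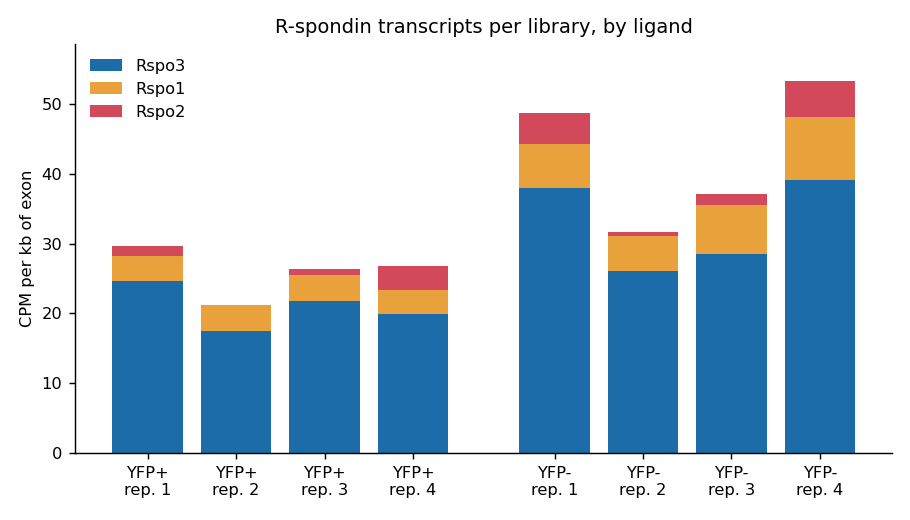
Stacked bars of Rspo3, Rspo1 and Rspo2 in CPM per kilobase of exon, one bar per library, YFP-positive on the left and YFP-negative on the right. Rspo3 makes up most of every bar, and the YFP-positive bars reach 21.2 to 29.7, against 31.6 to 53.2 for the YFP-negative bars.

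Lgr4 was the only receptor at an appreciable level. Lgr4 (chr2:109917647-110014257, plus strand), the LGR found in many tissues, stood at 20.5, 40.8, 19.6 and 19.9 CPM in YFP-positive libraries 1 to 4 and at 21.1, 39.7, 19.3 and 16.0 CPM in YFP-negative libraries 1 to 4. Both replicate-2 libraries were high and the other 6 were close together whichever group they came from. The blocked log2 fold change was 0.08 ± 0.13 (SE; adjusted p = 0.919, edgeR), and the 95% interval of the ratio, 0.873 to 1.28, does not reach the ratio seen for any of the 3 R-spondins that fell.

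Lgr5 (chr10:115450311-115587780, minus strand), the marker of intestinal stem cells, had 2, 37, 2 and 15 counts in YFP-positive libraries 1 to 4 and 16, 7, 16 and 6 counts in YFP-negative libraries 1 to 4. That is 0.0689 to 2.56 CPM in YFP-positive and 0.304 to 0.890 CPM in YFP-negative cells, with no common direction among the pairs. Its log2 fold change was -0.60 with the block (edgeR adjusted p = 0.938) and 0.46 without it. The 95% interval of the blocked ratio, 0.117 to 3.72, leaves differences of severalfold either way undetectable at this depth. Of the other stem cell markers, Olfm4 had 0, 13, 0 and 11 counts in YFP-positive libraries 1 to 4 and 3, 0, 1 and 33 counts in YFP-negative libraries 1 to 4, and Ascl2 had 3 counts, all in YFP-negative library 3. The other 3 genes of the list stood far above Lgr5 and did not pass the test. They are not read as a measure of stem cells here, since which cells carried them was not tested. The epithelial gene Epcam averaged only 5.48 CPM in YFP-positive and 1.25 CPM in YFP-negative libraries. Smoc2 averaged 218.7 ± 44.4 CPM in YFP-positive and 207.5 ± 53.7 CPM in YFP-negative cells, Slc12a2 65.2 ± 13.5 CPM in YFP-positive and 73.4 ± 36.0 CPM in YFP-negative cells, and Rgmb 16.6 ± 1.20 CPM in YFP-positive and 22.9 ± 1.30 CPM in YFP-negative cells (SD, n = 4 each).

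Lgr6 (chr1:134983301-135105276, minus strand), a receptor best known from skin stem cells, had 9, 181, 22 and 5 counts in YFP-positive libraries 1 to 4 and 26, 7, 13 and 3 counts in YFP-negative libraries 1 to 4. Of the 217 YFP-positive counts 181 came from library 2, at 12.5 CPM against at most 1.45 CPM in every other library. The blocked log2 fold change was 0.89 ± 1.00 (SE; adjusted p = 0.864, edgeR), and without pair 2 it was -0.29.

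Znrf3 was measured well and Rnf43 barely. Znrf3 (chr11:5276324-5444847, minus strand) stood at 19.0, 41.8, 23.3 and 22.1 CPM in YFP-positive libraries 1 to 4 and at 27.2, 54.5, 25.3 and 23.5 CPM in YFP-negative libraries 1 to 4. The groups overlapped, with library 2 high in both, and the YFP-positive library was the lower one of all 4 pairs. The blocked log2 fold change was -0.28 ± 0.12 (SE), with an unadjusted p of 0.0401 and an adjusted p of 0.411 by edgeR, so Znrf3 did not pass the test. The authors' deposited table gives -0.283 with an adjusted p of 0.53.

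Rnf43 (chr11:87662722-87735539, plus strand) had 11, 52, 2 and 37 counts in YFP-positive libraries 1 to 4 and 24, 2, 5 and 27 counts in YFP-negative libraries 1 to 4. The highest was 3.59 CPM in YFP-positive library 2, and 2 pairs went each way. Its blocked log2 fold change was 0.18 ± 1.06 (SE; adjusted p = 0.982, edgeR). Both ligases are themselves Wnt targets in the epithelium.

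**Figure D3:**
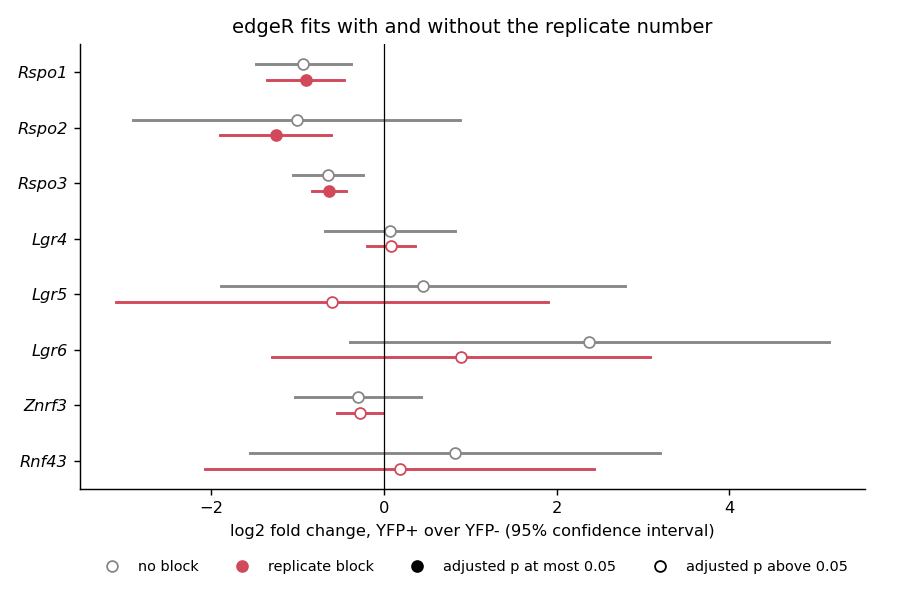
Log2 fold change of YFP-positive over YFP-negative cells with its 95% confidence interval for the 8 tested genes, from edgeR without (grey) and with (red) the replicate number; filled points have an adjusted p of at most 0.05. The 3 R-spondins are filled in the blocked fit, Lgr4 is centred on 0.08, and Lgr5, Lgr6 and Rnf43 have intervals that span both directions widely.

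Ordered by CPM per kilobase, Rspo3 was the highest of the 9 genes in both populations, at 21.0 ± 3.02 in YFP-positive and 32.9 ± 6.59 in YFP-negative cells (SD, n = 4 each). In YFP-positive cells Lgr4 (4.28), Rspo1 (3.59), Znrf3 (3.36), Rspo2 (1.43), Lgr6 (0.507), Rnf43 (0.210), Lgr5 (0.0803) and Rspo4 (0.00363) followed. Only Rspo3 was separated from its neighbour, with every other neighbouring pair overlapping in range. In YFP-negative cells the order was Rspo3, Rspo1 (6.85), Znrf3 (4.13), Lgr4 (4.08), Rspo2 (2.89), Rnf43 (0.116), Lgr6 (0.0961), Lgr5 (0.0568) and Rspo4 (0). There the ranges parted between Rspo3 and Rspo1, between Rspo2 and Rnf43 and between Lgr5 and Rspo4. Neighbours among Rspo1, Znrf3, Lgr4 and Rspo2 overlapped in range. Within each YFP-negative library Rspo1 was nevertheless above Rspo2, by ratios of 1.47, 8.06, 4.63 and 1.77 in libraries 1 to 4. Rspo1 stood second in YFP-negative cells and below Lgr4 in YFP-positive cells.

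Markers of R-spondin-producing stroma were also lower in YFP-positive cells. Of 9 markers of trophocytes and adventitial fibroblasts, 6 fell and none rose, among them Cd81 (log2 fold change -0.96, adjusted p = 0.000203) and the BMP antagonist Grem1 (-0.55, adjusted p = 0.000437), both by edgeR with the block. Their summed level was 7204 to 10799 CPM in YFP-positive and 11971 to 16389 CPM in YFP-negative libraries, with pair ratios of 0.562 to 0.682, beside 0.509 to 0.766 for Rspo3. The complement gene C3 made up 90.2% to 92.2% of this sum, and without it the pair ratios were 0.600 to 0.751. The 3 markers that did not pass were Pi16 (-1.34), Ly6c1 (-0.28) and Dpp4 (1.02). Of 6 pan-fibroblast genes 5 fell, with pair ratios of 0.625 to 0.816. Of 8 tested markers of subepithelial fibroblasts and telocytes 3 rose (pair ratios of the sum 1.04 to 1.13). Pdgfra made up 52.7% to 63.9% of that sum, and without it the pair ratios were 1.15 to 1.33. The telocyte gene Foxl1 was at 0 in all 8 libraries. Of 7 smooth muscle genes 3 rose, with pair ratios of 1.22 to 1.504. In bulk libraries, fewer cells of a type and less RNA per cell cannot be told apart.

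Lymphatic endothelium, the other known Rspo3 source, had summed markers of 8.32 to 28.6 CPM in YFP-positive and 7.99 to 34.8 CPM in YFP-negative libraries, lower in 3 of 4 pairs with no gene called. The mesothelial list was at 5.62 to 12.4 CPM in YFP-positive and 5.79 to 7.25 CPM in YFP-negative libraries, and the enteric glia list, lower in all 4 pairs, at 1.73 to 3.93 CPM in YFP-positive and 5.46 to 35.3 CPM in YFP-negative libraries. Markers of epithelium, in which Lgr5 and Rnf43 are known to be expressed, summed to 18.4, 35.5, 11.6 and 155 CPM in YFP-positive libraries 1 to 4 and to 37.3, 19.9, 17.4 and 35.4 CPM in YFP-negative libraries 1 to 4. Their part in the values of these genes, or of the R-spondins, was not tested. In the blocked fit with the epithelial sum as a covariate, Rspo3 kept its call. Rspo1 (-0.87, adjusted p = 0.0820) and Rspo2 (-1.30, adjusted p = 0.0757) did not pass there by edgeR, beside -0.91 and -1.25 without the covariate. Lgals4 made up 20.9% to 93.1% of the epithelial sum, and without it the pair ratios were 0.359 to 5.58. Pair ratios were 0.882 to 2.05 for the leukocyte list and 0.533 to 3.89 for the endothelial list. The pericyte sum had ratios of 0.834 to 0.922, but Rgs5, which fell (-0.36, adjusted p = 0.00294, edgeR with the block), made up 56.0% to 79.4% of it. Without Rgs5 the ratios were 1.08 to 1.29, and Cspg4 of the same list rose (0.43, adjusted p = 0.00803, edgeR with the block). The crypt base list, of which Smoc2 made up 61.6% to 74.8%, had ratios of 0.894 to 1.09, and 0.688 to 1.02 without Smoc2. The list of interstitial cells of Cajal had ratios of 1.01 to 1.57, and 0.942 to 2.91 without Etv1.

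**Figure D4:**
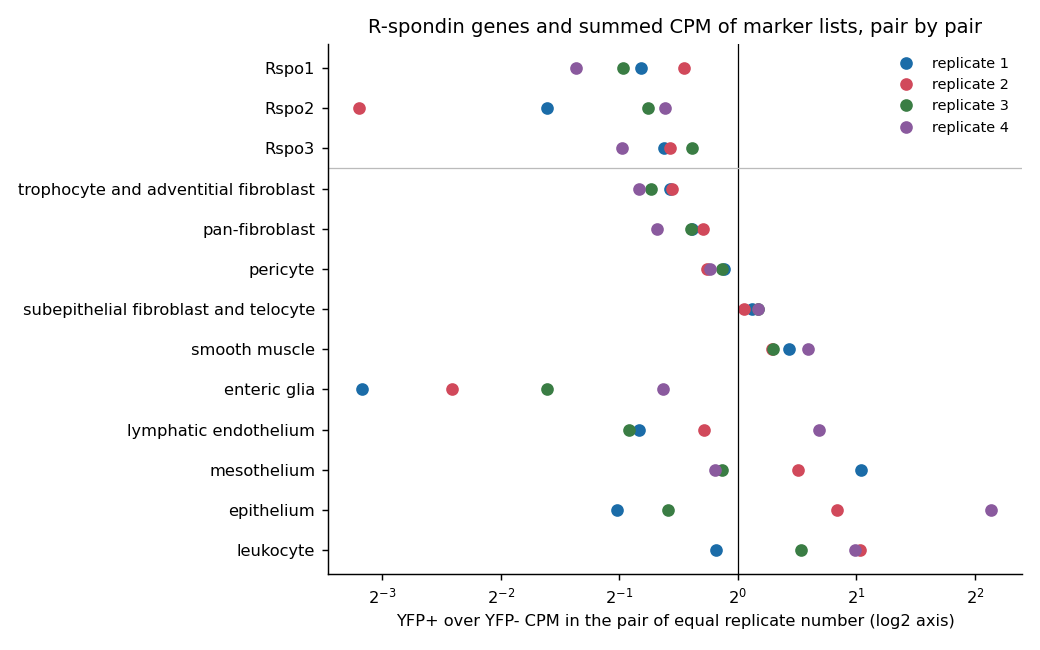
Ratio of YFP-positive over YFP-negative CPM in each pair of equal replicate number (log2 axis) for the 3 R-spondins and for the summed CPM of 10 marker lists, one colour per replicate number. Rspo3 (0.509 to 0.766) and the trophocyte and adventitial list (0.562 to 0.682, mostly C3) lie left of 1 in all 4 pairs, smooth muscle (1.22 to 1.504) lies right of 1, and the epithelial list runs from 0.493 to 4.39.

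Among the other genes of the pathway, few passed the test in any list, and the lists were not compared with each other. Of 19 Wnt ligands 8 were tested, of which 1 rose and 2 fell, with a list median of 0.20 on the log2 scale beside 0.00484 over all genes tested. Wnt4 rose, at 46.7, 24.2, 52.4 and 51.1 CPM in YFP-positive libraries 1 to 4 and 26.0, 17.6, 27.1 and 25.0 CPM in YFP-negative libraries 1 to 4, with a blocked difference of 0.83 ± 0.12 on the log2 scale (SE; adjusted p = 0.00132, edgeR). Only YFP-positive library 2 lay within the YFP-negative range. Wnt2b, a canonical ligand of gut stroma, fell, with 121 ± 29.7 CPM in YFP-positive and 155 ± 41.0 CPM in YFP-negative cells (-0.36, adjusted p = 0.00855, edgeR), and so did Wnt11, a ligand known for non-canonical signalling, with 10.1 ± 4.25 CPM in YFP-positive and 18.1 ± 8.36 CPM in YFP-negative cells (-0.81, adjusted p = 0.0344, edgeR).

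Of 15 Frizzled, LRP, ROR and RYK receptors 14 were tested and 1 fell, none rising (list median -0.08). It was Fzd4, at 27.3 ± 7.0 CPM in YFP-positive and 41.4 ± 12.4 CPM in YFP-negative cells (-0.60, adjusted p = 0.0208, edgeR). Of 11 secreted antagonists 8 were tested and 1 fell (list median -0.04). It was Sfrp1, which binds Wnt proteins, at 1467 ± 375 CPM in YFP-positive and 1803 ± 475 CPM in YFP-negative cells (-0.30, adjusted p = 0.0169, edgeR). None of 14 relay genes passed in either direction (list median -0.01). Their count without the block is also 0, as it is for all genes tested. The most abundant, the casein kinase gene Csnk1a1, was at 417 CPM in YFP-positive and 422 CPM in YFP-negative cells (-0.02, adjusted p = 0.965, edgeR), a difference whose sign turned with library sizes alone (0.07).

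Of 10 feedback targets of β-catenin 9 were tested and 1 fell, with a list median of -0.37. It was Apcdd1, a membrane inhibitor of Wnt signalling, at 66.5 ± 14.9 CPM in YFP-positive and 85.4 ± 14.3 CPM in YFP-negative cells (-0.37, adjusted p = 0.0196, edgeR). Axin2 and Nkd1, widely used readouts of the pathway, were named here after their values were seen. Neither passed the test, and both stood lower on the YFP-positive side of all 4 pairs, which was true of 10.2% of all genes tested. Axin2 averaged 19.9 ± 5.92 CPM in YFP-positive and 27.8 ± 4.78 CPM in YFP-negative cells (-0.51, adjusted p = 0.1004, edgeR), and Nkd1 26.7 ± 6.28 CPM in YFP-positive and 36.4 ± 9.49 CPM in YFP-negative cells (-0.44, adjusted p = 0.0767, edgeR). Of the 11 other blocked settings, Nkd1 passed in 3 (adjusted p = 0.0458 in DESeq2, 0.0219 in limma voom and 0.0268 in edgeR on genes with any count) and Axin2 in 1 (0.0312 in edgeR on genes with any count). Among the 9 tested targets 6 had a negative blocked log2 fold change, beside 49.0% of all genes tested. Tnfrsf19 (0.15), Tcf7 (0.097) and Sp5 (0.095) had a positive one and did not pass the test. Of 10 heparan sulfate proteoglycans, which hold R-spondins and Wnt proteins at the cell surface, 9 were tested, 1 rose and 1 fell (list median 0.09). Sdc1 rose, with 163 ± 42.9 CPM in YFP-positive and 134 ± 36.6 CPM in YFP-negative cells (0.29, adjusted p = 0.0482, edgeR). Gpc3 fell, with 41.0 ± 11.6 CPM in YFP-positive and 59.4 ± 18.3 CPM in YFP-negative cells (-0.52, adjusted p = 0.0114, edgeR). Among the pathway genes that passed, Wnt4 was called in all 11 other settings of the blocked fit, and the other 7 in 6 to 8 of them.

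**Figure D5:**
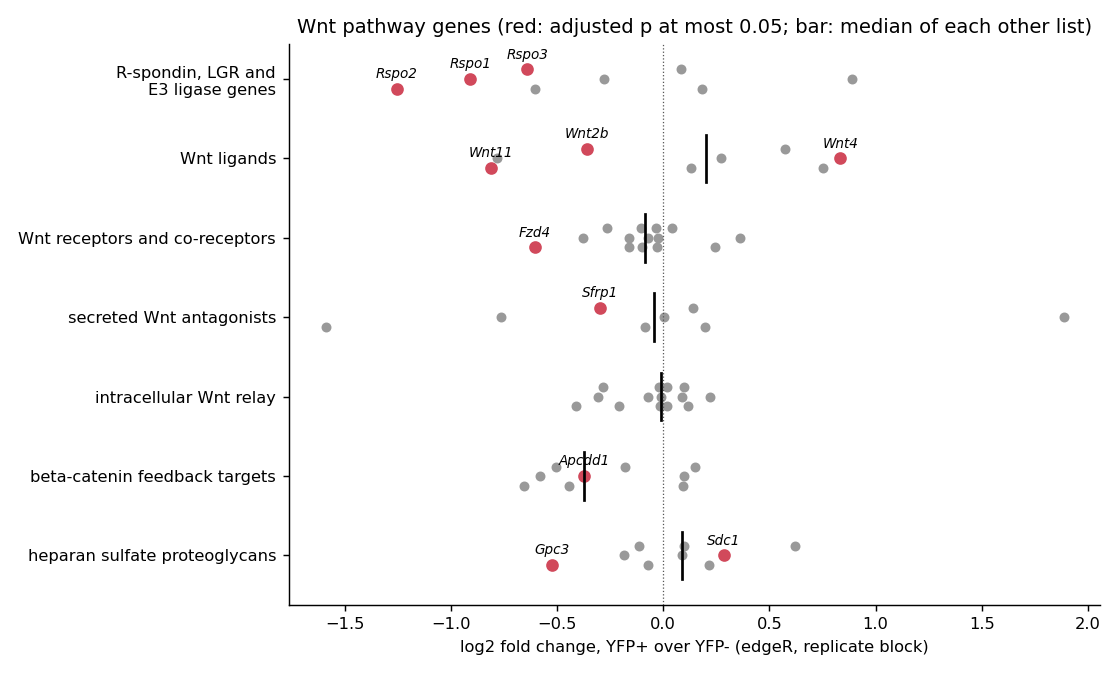
Log2 fold change of YFP-positive over YFP-negative cells (edgeR with the replicate block) for each tested gene of the module and of 6 Wnt pathway lists; red points have an adjusted p of at most 0.05 and black bars mark the medians of the 6 lists. The R-spondins carry 3 of the red points, at -1.25, -0.91 and -0.64, and Wnt4 at 0.83 lies farthest to the right of the red ones.

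The genes whose log2 CPM ran most like that of a member across the 8 libraries were taken from 10093 genes of at least 5 CPM. They are given as a description, since the points share replicate number and depth. Both groups enter the correlation, so a shared difference between the groups is part of what selected these genes. Rspo3 ran closest to Pianp (Pearson r = 0.979), Xylb (0.967) and Mpp2 (0.962), and Rspo1 to Enpp2 (0.967), Xylb (0.962) and Bgn (0.939). Enpp2, which encodes the secreted enzyme autotaxin, also fell (log2 fold change -0.56, adjusted p = 0.00821, edgeR with the block), as did Pianp (-1.04, adjusted p = 0.0182, edgeR with the block). Xylb, Mpp2 and Bgn did not pass (adjusted p = 0.262, 0.705 and 0.557, edgeR with the block). Rspo2 ran closest to Klhl13 (0.984), Frem1 (0.977) and Leprot (0.977). Lgr4 ran closest to Snx8 (0.990), Slk (0.990) and Rbpj (0.988), and Znrf3 to Ppm1b (0.992), Pnpla8 (0.989) and Olfr1033 (0.987). Over the 6 libraries without number 2 the values for Lgr4 were lower, 0.877 for Snx8, 0.939 for Slk and 0.813 for Rbpj, while those for Rspo1 and Rspo3 stayed between 0.938 and 0.976. Within the module, Rspo1 and Rspo3 had r = 0.884 over the 8 libraries and 0.893 without number 2. Lgr4 and Znrf3 had r = 0.903 over the 8 libraries and -0.03 without number 2, so that value rests on the 2 libraries of that number.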

How the data were processed

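The data were 4 YFP-positive and 4 YFP-negative libraries, grouped and numbered by the sample titles. Libraries were made with Takara's SMARTer stranded total RNA kit for low input and sequenced on an Illumina NextSeq, per the labels' protocols. Per the submitters' processing notes, reads were handled with cutadapt 3.4 and STAR 2.7.3a on GRCm38, counted with featureCounts 2.0.1 and compared with DESeq2. No setting or annotation release is stated there. The authors deposited unnormalised counts of each gene in each library. Per the file headers, their comparison holds log2 fold changes, p-values and adjusted p-values; it is used here only where named.

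From the counts, edgeR 4.0.16 (R 4.3.3) was run on the whole table: filterByExpr by group, TMM factors, a robust quasi-likelihood fit with group as its only term and a two-sided test. A second fit added the replicate number as a block. The pairing rests on the libraries' deviations from their group means, in which all 8 libraries correlated best with their own number (lowest r 0.233), and on the deposited comparison, matched by a DESeq2 fit with that term. CPM values are TMM-normalised, given as mean ± SD over 4 libraries, and log2 CPM for likeness used a prior count of 2. Length was the union of annotated exons in GENCODE M21 (GRCm38). DESeq2 1.42.0 and limma 3.58.1 (voom), other scaling, filters, covariates and left-out libraries were tried; the deposited comparison's refit, the correlations without number 2 and the list sums without their most abundant gene were chosen after seeing the data. Every pair of libraries of a group differed by more than sampling noise (chi-square over its degrees of freedom at least 50.9). The edgeR script was tested on simulated data.

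The genes, the lists and the tests were chosen with earlier results of these data known. Named beyond the 9 genes were, from each pathway list, up to 2 genes called in each direction with the block, lowest adjusted p first, or else the most abundant one, and the 3 genes most like each member of at least 5 CPM. The limits given for Rspo4 cover counting error only. The intervals of ratios come from the blocked fit and include the spread between libraries that remains after the replicate number.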

Additional observations from a re-analysis of the deposited data

Results flagged for a closer look

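In 4 of 16 sets of 4 libraries, 1 library lay farther from the rest than Dixon's test allows at 95%, a result that chance gives in about 1 in 20 sets. Lgr4 in YFP-positive cells stood at 40.8 CPM in library 2, against 19.6 to 20.5 CPM in the other 3 YFP-positive libraries. Lgr6 in YFP-positive cells stood at 12.5 CPM in library 2, against 0.198 to 0.880 CPM in the others. Znrf3 in YFP-negative cells stood at 54.5 CPM in library 2, against 23.5 to 27.2 CPM in the others. All 3 are libraries of replicate number 2, which also stood apart on the first principal component. For Rspo1 in YFP-positive cells the lowest library was number 4, at 6.77 CPM against 7.0 to 7.04 CPM in the others, a gap smaller than the counting error of any of these libraries.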

How the results depend on the processing

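Without the replicate block, 0 of the 9 genes were called in any of the 16 other settings, libraries left out included. With the block 3 were called (Rspo1, Rspo2 and Rspo3) in edgeR, in DESeq2, in limma voom, with RLE factors, with any count of at least 1 in edgeR or DESeq2, and without pair 2. Only 1, Rspo3, was called with library sizes alone, with the epithelial covariate and without pair 1, 3 or 4, so that leaving out a pair gave 1 to 3. In no setting, blocked or not, did Rspo1, Rspo2 or Rspo3 change sign, with log2 fold changes over left-out libraries of -1.06 to -0.75, -1.83 to -0.59 and -0.75 to -0.52.

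Lgr5, at 0.46 without the block, reversed to -0.60 with it, -0.72 in blocked DESeq2, -1.01 in voom, -0.016 in blocked voom, -0.61 with RLE factors and the block, -0.51 with library sizes and the block, -0.65 and -0.73 with any count of at least 1 in blocked edgeR and DESeq2, and -1.30 with the epithelial covariate. Rnf43 reversed to -0.15 with that covariate, and Csnk1a1 to 0.0665 with library sizes alone and 0.0658 with library sizes and the block. Leaving out libraries without the block gave -1.22 to 0.86 for Lgr5, -0.25 to 1.27 for Rnf43, -0.50 to 3.12 for Lgr6, -0.26 to 0.42 for Lgr4, -0.60 to 0.061 for Znrf3 and -0.10 to 0.069 for Csnk1a1, the sign turning without YFP-positive library 2 for the first 4 and, for Lgr4, also without YFP-negative library 3 or 4. Leaving out pairs in the blocked fit gave -1.71 to 0.36 for Lgr5 (-1.36 without pair 4), -0.87 to 1.04 for Rnf43, -0.29 to 2.11 for Lgr6 and -0.060 to 0.0064 for Csnk1a1. The cause was not tested.

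Over all genes, 111 were called higher and 253 lower with the block, 168 and 357 in blocked DESeq2, 209 and 384 in blocked voom, 253 and 420 with any count of at least 1, and 38 to 130 and 119 to 296 with a pair left out. Library sizes alone, which moved the median log2 fold change to 0.0915, gave 212 higher and 153 lower. With the longest transcript as length, Lgr5 in YFP-negative cells moved to 0.122 CPM per kilobase and Rspo1 in YFP-positive cells to 3.79, behind Znrf3. Rspo2 moved to 2.19 in YFP-positive and 4.43 in YFP-negative cells, and Rnf43 to 0.320 in YFP-positive and 0.176 in YFP-negative cells. The share of Rspo2 in the R-spondin sum then was 7.605 ± 7.29% in YFP-positive and 8.94 ± 5.28% in YFP-negative libraries, and Rspo3 held 78.1 ± 5.78% in YFP-positive and 74.6 ± 4.70% in YFP-negative libraries. Counts of 2 to 52 per library limit Lgr5 and Rnf43. At 2 CPM or more in 4 libraries Lgr5, Lgr6 and Rnf43 gave no value, nor did Rnf43 in the blocked fit without pair 4, since they failed those filters.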
